A study of Mus musculus with 48 samples.

Results

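Atf4 and 9 genes that respond to its product were followed in the mouse substantia nigra (SN), the midbrain region that holds the dopaminergic neurons lost in Parkinson's disease. The 10 genes, Atf4, Ddit3, Atf3, Atf5, Chac1, Trib3, Asns, Psat1, Phgdh and Sesn2, were taken by symbol as known members of the integrated stress response. No cut on their values was used, but earlier results of these data were known when they were chosen. They are 10 of the 19601 protein-coding genes in the batch-corrected table. All 10 passed the filter on low counts, as did 14839 genes in all. On GRCm38 (GENCODE vM21) they lie on 9 chromosomes, with Chac1 (chr2:119351229-119354381, plus strand) and Trib3 (chr2:152337422-152344032, minus strand) on the same one. Atf4 is at chr15:80255184-80257541 and Ddit3 at chr10:127290774-127296288, both on the plus strand. On the minus strand are Atf3 (chr1:191170296-191218039), Atf5 (chr7:44812256-44816658), Asns (chr6:7675169-7693254), Psat1 (chr19:15904678-15947337), Phgdh (chr3:98313170-98339990) and Sesn2 (chr4:132492032-132510501).

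Bulk RNA-seq had been made from the SN of 48 male C57Bl/6J mice, 12 in each of 4 groups. Each mouse received 1 injection into the right striatum at 121 days of age, either of α-syn preformed fibrils (PFF), which seed aggregates of α-synuclein, or of α-syn monomer as the control. The mice then breathed 21% O2 or 11% O2, and the SN was taken 90 to 98 days after the injection. The 4 groups were therefore monomer at 21% O2, PFF at 21% O2, monomer at 11% O2 and PFF at 11% O2. No group was left without an injection, and the study's methods and the deposited description differ on whether 11% O2 began at the injection or midway to the harvest. The whole SN was used, so the pars compacta and its dopaminergic neurons were not separated from the rest.

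The integrated stress response joins several kinds of trouble in a cell. Kinases that sense unfolded protein, lack of amino acids, lack of haem or viral RNA all phosphorylate the initiation factor eIF2, which slows protein synthesis in general while letting the ribosome reach the coding region of Atf4. ATF4 protein then raises the transcription of genes for amino acid synthesis and transport, for further transcription factors such as CHOP, and for inhibitors that close the loop. Because ATF4 itself is set largely by translation, the level of its mRNA is only part of the picture, and its target genes serve as the readout at the level of RNA.

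ATF4 binds with C/EBP partners to a composite element, TGATGNAA, which is why the promoter windows were searched for it. The windows, from RefSeq on GRCm38.p6, hold 250 bases before and 50 bases after a gene's start, and all 10 genes had at least 1. On either strand, the element was found in the windows of 4 of the 10 genes, Atf3, Chac1, Trib3 and Asns, beside 4.51% of the 27025 genes with a window. The stretches with the element are shown 5′ to 3′ on the strand of the gene, with the element in capitals.
Atf3: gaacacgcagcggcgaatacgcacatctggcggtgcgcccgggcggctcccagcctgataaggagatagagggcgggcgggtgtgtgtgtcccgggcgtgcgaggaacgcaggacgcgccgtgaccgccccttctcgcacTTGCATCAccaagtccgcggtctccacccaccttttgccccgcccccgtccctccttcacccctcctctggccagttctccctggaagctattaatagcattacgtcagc
Chac1: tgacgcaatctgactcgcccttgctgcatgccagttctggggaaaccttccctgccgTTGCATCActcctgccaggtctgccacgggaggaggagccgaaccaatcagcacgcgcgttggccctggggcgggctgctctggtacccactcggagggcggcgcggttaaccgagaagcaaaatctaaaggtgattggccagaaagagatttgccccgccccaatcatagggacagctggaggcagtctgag
Trib3: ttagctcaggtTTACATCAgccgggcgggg
Asns: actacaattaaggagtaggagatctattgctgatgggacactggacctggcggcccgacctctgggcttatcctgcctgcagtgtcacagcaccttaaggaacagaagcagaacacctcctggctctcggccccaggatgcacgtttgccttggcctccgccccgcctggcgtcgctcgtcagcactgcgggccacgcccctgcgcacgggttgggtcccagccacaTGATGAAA
The Atf3 stretch is chr1:191183334-191183583 on the minus strand, the Chac1 stretch is chr2:119350992-119351241 on the plus strand, the Trib3 stretch is chr2:152344028-152344057 on the minus strand and the Asns stretch is chr6:7693225-7693459 on the minus strand. In Atf3, Chac1 and Trib3 the element reads on the strand opposite to the gene, and in Asns on the same strand. It lay outside annotated exons of GENCODE vM21 in Atf3, Chac1 and Trib3, whereas in Asns it lay in the first exon of that annotation although it precedes the RefSeq start. A longer form, TGATGNAAT, was in none of the 10 and in 1.08% of genes. The cyclic AMP response element TGACGTCA was in none of the 10 and in 2.03% of genes, and ACGTG, the core of the hypoxia response element, was in 3 of the 10, Ddit3, Asns and Psat1, and in 21.8% of genes. A match is a string of letters and not a measured binding site.

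The authors left out 6 of the 48 mice after a principal components analysis and corrected the other 42 for the batch given in the labels, which goes with the date of harvest except for 1 mouse. This left 11 monomer and 12 PFF mice at 21% O2, and 9 monomer and 10 PFF mice at 11% O2, with 12902996 to 17120921 counts each. Batch 1 held all 4 groups. Batch 2 had no monomer mice at 11% O2 and batch 3 had no monomer mice at 21% O2, so for the monomer groups the effect of O2 can be seen within batch 1 alone. Dopaminergic markers were present in every mouse, with Th between 96.1 and 1079 TPM. In monomer mice, 8 of 8 endothelial markers, 6 of 7 pericyte and smooth muscle markers and 5 of 5 blood markers were called higher at 11% than at 21% O2. Of all 14839 genes tested, 694 were called higher there. The part of these markers in the values of that comparison was not tested.

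Levels are given as TPM, which are scaled by gene length and so can be compared between genes. The serine synthesis enzymes Psat1 and Phgdh had the highest medians over the 42 mice, 230.6 and 209.9 TPM, followed by Atf4 at 200.6 TPM and Asns at 143.9 TPM. Ddit3 had a median of 73.3 TPM, Atf5 of 41.0, Chac1 of 20.2 and Sesn2 of 19.6. Atf3 at 2.35 TPM and Trib3 at 1.07 TPM were near the floor: their batch-corrected counts were 10 to 34 and 1 to 20 per mouse, and only 10.6% and 4.43% of the genes tested had a lower median. By contrast 95.3% of the genes tested lay below Psat1. The ranges of Asns and Ddit3, of Ddit3 and Atf5, of Atf5 and Chac1, and of Sesn2 and Atf3 did not overlap. Psat1 was above Phgdh in 40 of 42 mice and Atf3 above Trib3 in 40 of 42, whereas Phgdh was above Atf4, and Chac1 above Sesn2, in 29 of 42 mice each. The ranges of these last pairs overlapped, and their difference was not tested.

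**Figure D1:**
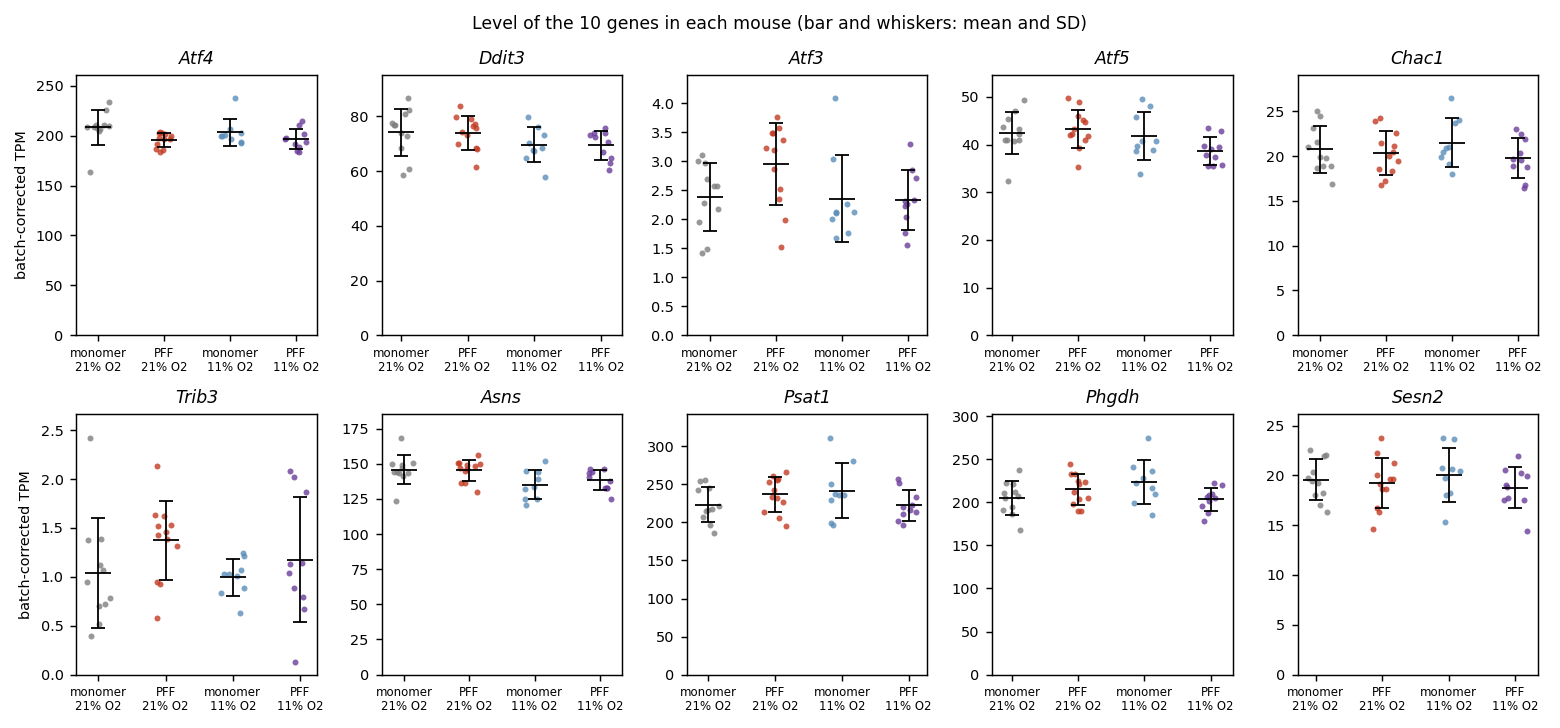
Batch-corrected TPM of each of the 10 genes in each of 42 mice, by group, with the mean and SD. The 4 groups overlap for every gene, and Atf3 and Trib3 lie near 0.

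No gene of the 10 was called in any comparison, where a call needed a log2 fold change of more than 0.25 either way and, in the quasi-likelihood test of edgeR, a Benjamini–Hochberg adjusted p under 0.05. For PFF against monomer at 21% O2, 0 of 10 were called while 3.70% of all genes tested were. At 11% O2 the same contrast called 0 of 10, and 0% of all genes. For 11% against 21% O2, 0 of 10 were called in monomer mice, where 7.23% of all genes were, and 0 of 10 in PFF mice, where 0.580% were. The interaction, which is the PFF effect at 11% O2 minus that at 21% O2, called 0 of 10, and 2.14% of all genes. DESeq2 and limma on log2 TPM also called 0 of 10 in each of the 5 comparisons. In this bulk tissue, fewer cells of a type and less RNA per cell cannot be told apart.

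At an unadjusted p under 0.05 in edgeR's quasi-likelihood test, 1 of the 10 genes stood out for PFF at 21% O2 (Atf3), where 22.4% of all genes did, and 1 for PFF at 11% O2 (Phgdh), where 3.92% did. For 11% against 21% O2, 2 did in monomer mice (Asns and Phgdh), beside 27.7% of all genes, and 2 in PFF mice (Atf3 and Atf5), beside 10.7%. For the interaction, 2 did (Psat1 and Phgdh), beside 15.4%. The median log2 fold change of the 10 was 0.03 for PFF and -0.02 for 11% O2 in monomer mice, and the median of all genes tested was between -0.01 and 0.01 in each comparison. For PFF at 11% O2 it was -0.06, for 11% O2 in PFF mice -0.08, and for the interaction -0.12.

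In the fit to the batch-corrected counts, the estimates were narrow for the 8 genes other than Atf3 and Trib3. That fit has no batch term, so its intervals leave out the uncertainty of the correction. For PFF at 21% O2 the 95% intervals of all 8 lay within 0.25 of 0 on the log2 scale, and reached from 0.899-fold for Chac1 to 1.18-fold for Psat1. In both O2 comparisons 7 of these 8 intervals lay within 0.25 of 0, and for PFF at 11% O2 6 of 8 did. The interaction was less precise, with 3 of 8 inside these limits and bounds from 0.755-fold to 1.12-fold.

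**Figure D2:**
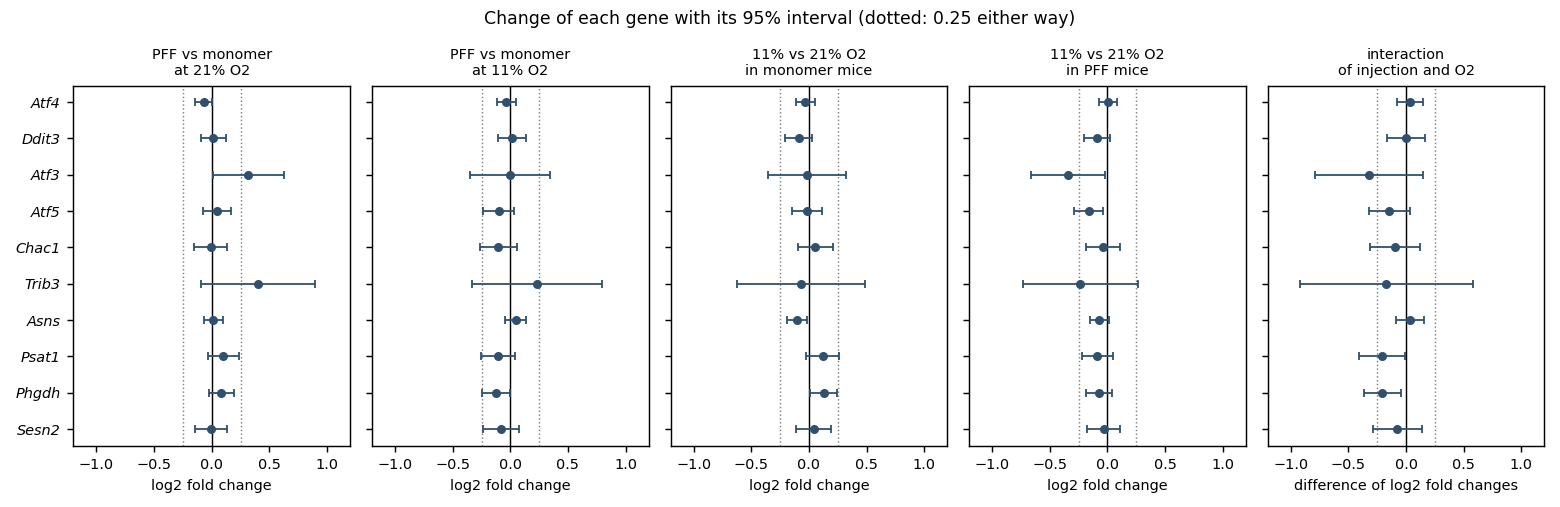
Log2 fold change of each gene with its 95% interval in the 5 comparisons, from edgeR on the batch-corrected counts of 42 mice, with dotted lines at 0.25 either way. Most intervals stay inside the lines, and those of Atf3 and Trib3, the genes with the fewest counts, are the widest.

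Atf4 encodes the factor through which the response works. At 21% O2 it ran from 163.7 to 233.5 TPM in monomer mice (median 209.2) and from 183.4 to 204.1 TPM in PFF mice (median 197.4), so that every PFF mouse was below the monomer median although the ranges overlapped. At 11% O2 it ran from 192.8 to 237.6 TPM in monomer mice (median 200) and from 184.03 to 215.2 TPM in PFF mice (median 195.5). The change with PFF at 21% O2 was -0.07 ± 0.04 (log2, SE; adjusted p = 0.271, edgeR), with an interval from -0.15 to 0.01. Monomer replicate 3 at 21% O2 was the lowest mouse, and without it the change was -0.10 with an adjusted p of 0.0469 in edgeR, still under the size needed for a call. Over all 42 refits without 1 mouse the change ran from -0.10 to -0.05. Its unadjusted p in edgeR was under 0.05 in 2 of the 42. Within batch 1 the change was -0.03 and within batch 2 it was -0.14. With 11% O2, Atf4 differed by -0.03 ± 0.04 in monomer mice and 0.01 ± 0.04 in PFF mice.

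Ddit3 encodes CHOP, the factor that ATF4 induces under lasting stress and that is linked to cell death. It ran from 58.6 to 86.7 TPM in monomer mice (median 76.7) and from 61.5 to 83.7 TPM in PFF mice (median 74.9) at 21% O2. At 11% O2 the ranges were 58.0 to 79.9 TPM (median 68.6) and 60.4 to 75.8 TPM (median 71.5). Its change with PFF was 0.01 ± 0.05 at 21% O2 and 0.01 ± 0.06 at 11% O2, and the interaction was 0.00 ± 0.08. With 11% O2 it differed by -0.09 ± 0.06 in monomer mice and -0.09 ± 0.06 in PFF mice (edgeR adjusted p = 0.340 and 0.600). The flat value for PFF at 21% O2 joined 0.12 in batch 1 and -0.19 in batch 2, a difference between batches that was not tested. With all 48 mice, counts before correction and batch as a covariate, Ddit3 at 11% O2 in monomer mice came to -0.22 with an adjusted p of 0.0419 in edgeR, again under the size needed for a call, whereas batch 1 alone gave 0.07. Of its exonic bases, 10.9% are shared with other annotated genes, and reads were counted without strand.

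Atf3 encodes a stress-induced factor that also marks injured neurons. It ran from 1.42 to 3.11 TPM in monomer mice (median 2.56) and from 1.52 to 3.77 TPM in PFF mice (median 3.21) at 21% O2, and 7 of the 12 PFF mice were above the highest monomer mouse. Among them were the 4 such mice of batch 3 (3.37 to 3.77 TPM), a batch without monomer mice at 21% O2. For those 4, injection and batch cannot be told apart. At 11% O2 it ran from 1.68 to 4.08 TPM in monomer mice (median 2.12) and from 1.56 to 3.29 TPM in PFF mice (median 2.28). The difference for PFF at 21% O2 was 0.32 ± 0.15 (adjusted p = 0.208, edgeR), with an interval from 0.01 to 0.63. It was 0.64 within batch 1 and -0.08 within batch 2. In PFF mice, 11% O2 differed from 21% O2 by -0.34 ± 0.16 (adjusted p = 0.435, edgeR), which within batches 1, 2 and 3 was -0.34, 0.20 and -0.83. Neither difference had the same sign in every batch, and both rest on the 10 to 34 counts per mouse given above.

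Atf5 encodes a close relative of ATF4 that is controlled by translation in a similar way and acts in the mitochondrial stress response. Its group medians were 42.2 TPM in monomer and 42.8 TPM in PFF mice at 21% O2, within ranges of 32.3 to 49.4 and 35.3 to 49.7 TPM. At 11% O2 they were 40.7 TPM in monomer mice (33.9 to 49.7) and 38.5 TPM in PFF mice (35.4 to 43.4). In PFF mice 11% O2 differed from 21% O2 by -0.16 ± 0.06 (adjusted p = 0.291, edgeR), and 8 of 10 mice at 11% O2 were below the median at 21% O2. Within batches 1, 2 and 3 the difference was -0.17, -0.20 and -0.12. It was 0.01 in all 48 mice with a batch term, where 2 of the PFF mice at 11% O2 that are outside the 42 had the highest Atf5 of all mice before correction, 55.3 and 63.0 TPM against at most 52.4 TPM in the 42. The first of these mice had 3134594 counts. Atf5 shares 4.11% of its exonic bases with genes on the other strand.

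Chac1, Trib3 and Sesn2 act downstream of these factors. Chac1 encodes an enzyme that degrades glutathione and is a well-known target of ATF4. Its group medians spanned 19.7 to 20.9 TPM, with single mice from 16.4 to 26.5 TPM. Its changes were -0.01 ± 0.07 for PFF at 21% O2 and -0.10 ± 0.08 at 11% O2, and 0.06 ± 0.08 and -0.04 ± 0.07 for 11% O2 in monomer and PFF mice. Without monomer replicate 5 at 11% O2 the value for PFF at 11% O2 was -0.06. Sesn2, which encodes a leucine sensor that restrains mTORC1, had group medians of 18.9 to 20.4 TPM and single mice from 14.4 to 23.8 TPM. The 4 changes of Sesn2, in the same order, were -0.01 ± 0.07, -0.08 ± 0.08, 0.04 ± 0.08 and -0.03 ± 0.07.

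Trib3 encodes a pseudokinase that is induced by CHOP and ATF4 and dampens the response. It ran from 0.393 to 2.43 TPM in monomer mice (median 0.945) and from 0.579 to 2.14 TPM in PFF mice (median 1.45) at 21% O2. At 11% O2 it ran from 0.630 to 1.245 TPM in monomer mice (median 1.03) and from 0.128 to 2.09 TPM in PFF mice (median 1.09). The groups overlapped. Its change with PFF at 21% O2 was 0.40 ± 0.24 (adjusted p = 0.338, edgeR), 0.85 within batch 1 and -0.05 within batch 2. Without monomer replicate 12 at 21% O2 it was 0.61 (unadjusted p = 0.0142, adjusted p = 0.115, edgeR). The interval, from -0.09 to 0.89, left room for changes that would have been called in a gene with more counts.

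Asns encodes asparagine synthetase, a classic readout of the response to lack of amino acids. At 21% O2 it ran from 123.4 to 168.7 TPM in monomer mice (median 143.9) and from 129.7 to 156.4 TPM in PFF mice (median 147.5). At 11% O2 it ran from 120.7 to 152.3 TPM in monomer mice (median 133.8) and from 125.1 to 146.2 TPM in PFF mice (median 139.1). All 10 PFF mice at 11% O2 were below the median of those at 21% O2. The differences with 11% O2 were small, -0.10 ± 0.04 in monomer mice (adjusted p = 0.106, edgeR) and -0.07 ± 0.04 in PFF mice (adjusted p = 0.555, edgeR), or 0.930-fold and 0.952-fold. Within batch 1 the monomer value was -0.08. Without monomer replicate 3 at 21% O2 it was -0.13 with an adjusted p of 0.0367, and without monomer replicate 2 at 11% O2 it was -0.13 with an adjusted p of 0.0450, both in edgeR and both under the size for a call. Over all 42 refits without 1 mouse the monomer value ran from -0.13 to -0.08. Its unadjusted p in edgeR was under 0.05 in 38 of the 42. With PFF, Asns differed by 0.01 ± 0.04 at 21% O2 and 0.05 ± 0.04 at 11% O2.

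Phgdh and Psat1 encode the first enzymes of serine synthesis, which in brain is mainly a task of astrocytes. Phgdh ran from 168.1 to 238.2 TPM in monomer mice (median 207.3) and from 189.8 to 244.4 TPM in PFF mice (median 216.8) at 21% O2. At 11% O2 it ran from 185.4 to 275.4 TPM in monomer mice (median 222.7) and from 178.7 to 223.0 TPM in PFF mice (median 205.6). Psat1 had medians of 217.6 TPM in monomer and 238.1 TPM in PFF mice at 21% O2, and of 236.3 and 218.1 TPM at 11% O2, with single mice from 185.6 to 311.7 TPM. For both genes the PFF median was above the monomer median at 21% O2 and under it at 11% O2, and all ranges overlapped. With PFF, Phgdh differed by 0.08 ± 0.05 at 21% O2 and by -0.12 ± 0.06 at 11% O2, and Psat1 by 0.10 ± 0.07 and -0.11 ± 0.07. The values at 11% O2 leaned on monomer replicate 7, without which they were -0.08 for Phgdh and -0.05 for Psat1. The interaction was -0.21 ± 0.08 for Phgdh and -0.21 ± 0.10 for Psat1 (adjusted p = 0.183 and 0.292, edgeR). In batch 1, the 1 batch with all 4 groups, it was -0.27 and -0.21. The marker lists of several cell types had values below 0 in the same comparison, and their part in these values was not tested. The median interaction was -0.18 for oligodendrocyte markers (10 of 10 below 0, 2 called lower), -0.12 for microglia (10 of 10), -0.04 for astrocytes (8 of 10), -0.26 for endothelium (7 of 8), -0.39 for pericytes and smooth muscle (7 of 7, 1 called lower), -0.18 for choroid plexus and ependyma (7 of 7) and -0.53 for blood (5 of 5). It was 0.08 for neuron markers and -0.07 for dopaminergic markers.

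The other parts of the pathway were looked up in lists chosen by function, with earlier results of these data known. Of all genes tested, 3.70% were called for PFF at 21% O2 and 7.23% for 11% O2 in monomer mice. The 4 eIF2 kinases, the 2 regulators of the eIF2 phosphatase and the 9 subunits of eIF2 and eIF2B gave 0 calls with PFF at either O2 level. In monomer mice at 11% O2, 1 kinase was called higher, Eif2ak2, which encodes the kinase for double-stranded RNA (0.27 ± 0.09, adjusted p = 0.0437, edgeR). Of 8 bZIP partners of ATF4, 1 was called, Fos, an immediate early gene, lower at 11% O2 in monomer mice (-0.76 ± 0.25, adjusted p = 0.0323, edgeR). In edgeR, 4 of the 8 had an unadjusted p under 0.05 in that comparison and 4 for the interaction. Of all genes tested, 27.7% and 15.4% did. With batch as a covariate on counts before correction, Eif2ak2 at 0.28 was not called and Fos at -0.97 was. Cytosolic tRNA synthetases, a large class of ATF4 targets, gave 0 calls of 12 in each comparison, with medians between -0.02 and 0.02. At an unadjusted p under 0.05 in edgeR, 1 of the 12 stood out with 11% O2 in monomer mice and none elsewhere. The 8 other serine and one-carbon genes also gave 0 calls in each comparison, with 2 and 4 of 8 at that unadjusted level for 11% O2 in monomer and PFF mice. Of 7 other amino acid synthesis genes, 1 was called, Cbs, which makes cystathionine, at 0.26 ± 0.09 with 11% O2 in monomer mice (adjusted p = 0.0454, edgeR), a call that the batch covariate also ended at 0.27.

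Of 9 amino acid transporters, 1 was called with PFF at 21% O2, where 3.70% of all genes tested were. This was Slc38a2, an importer of neutral amino acids that ATF4 raises, and it was lower (-0.29 ± 0.07, adjusted p = 0.00558, edgeR). It was -0.01 in batch 1 and -0.61 in batch 2. With batch as a covariate on counts before correction, it was -0.32 and called in the 42 mice (adjusted p = 0.00315, edgeR). In all 48 mice with that covariate it was -0.37 and not called (adjusted p = 0.215, edgeR). In edgeR, 4 of the 9 transporters had an unadjusted p under 0.05 with 11% O2 in monomer mice and 5 did in PFF mice. Of 14 other ATF4 targets, 11 were tested. At that level 6 of the 11 stood out for PFF at 21% O2, 7 with 11% O2 in monomer mice and 6 for the interaction. Of all genes tested, 22.4%, 27.7% and 15.4% did. With 11% O2 in PFF mice it was 2 of 11 (10.7% of all genes), and for PFF at 11% O2 it was 0 (3.92%). The values of the 11 lay on both sides of 0. Ddit4, an inhibitor of mTORC1, was called lower with PFF at 21% O2 (-0.42 ± 0.09, adjusted p = 0.00143, edgeR) and lower with 11% O2 in monomer mice (-0.44 ± 0.09, adjusted p = 0.00110, edgeR). Its value for PFF was -0.54 in batch 1 and -0.09 in batch 2. With batch as a covariate in the 42 mice, its value for PFF was -0.35 and called (adjusted p = 0.0178, edgeR). That for 11% O2 in monomer mice was -0.30 and not called. In that same O2 comparison Herpud1, which serves the degradation of proteins from the endoplasmic reticulum, was lower (-0.32 ± 0.05) and Stc2, a secreted glycoprotein, was higher (0.45 ± 0.12, not called at 0.46 with batch as a covariate). Of 6 genes of the mitochondrial stress relay, the chaperonins Hspd1 and Hspe1 were called lower there (-0.26 ± 0.04 and -0.29 ± 0.05). That comparison called 7.23% of all genes tested. Within batch 1 the values for 11% O2 in monomer mice were 0.28 for Eif2ak2, -1.27 for Fos, 0.30 for Cbs, -0.61 for Ddit4, -0.24 for Herpud1, 0.71 for Stc2, -0.23 for Hspd1 and -0.29 for Hspe1, each with the sign of its value over all batches. In that batch alone Fos, Ddit4 and Hspe1 were called and the other 5 were not. Leaving out 1 mouse at a time ended the call of Cbs and of Eif2ak2 in 11 of 42 refits each, of Fos in 7 and of Hspd1 in 5. For PFF at 11% O2, for 11% O2 in PFF mice and for the interaction, these 10 lists gave 0 calls in edgeR. Of all genes tested, 0%, 0.580% and 2.14% were called there.

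A further list holds targets of ATF6 and XBP1, which belong to other arms of the unfolded protein response. Like the lists above, it was chosen with earlier results of these data known. Its contrast with the 10 genes is therefore a description. ATF6 and XBP1 raise chaperones of the endoplasmic reticulum. For PFF at 21% O2, 6 of 10 such targets were called lower, beside 3.70% of all genes tested called either way. The 6 included Hspa5, the main chaperone of this compartment (-0.46 ± 0.08), Creld2 (-0.58 ± 0.11), Sdf2l1 (-0.59 ± 0.13) and Xbp1 (-0.35 ± 0.07). The same 6 were called lower with 11% O2 in monomer mice, where 7.23% of all genes tested were called. That comparison shares the monomer mice at 21% O2. The list's median was -0.32 and -0.41 in these comparisons, 0.01 for PFF at 11% O2 and -0.07 for 11% O2 in PFF mice. The interaction called 3 of 10, all higher, with a median of 0.32, beside 2.14% of all genes tested. In batch 1 alone the list's median for the interaction was -0.03 with 0 calls. With batch as a covariate 0 were called although the median stayed at 0.31 in 42 mice and was 0.36 in 48. Of these values, those of single batches lay apart, a difference that was not tested. For PFF at 21% O2 the list's median was 0.11 with 0 calls in batch 1 and -0.59 with 8 calls in batch 2, and for 11% O2 in monomer mice batch 1 alone gave -0.20 with 0 calls. The 10 ATF4-pathway genes had medians of 0.13 in batch 1 and -0.02 in batch 2 for PFF at 21% O2.

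**Figure D3:**
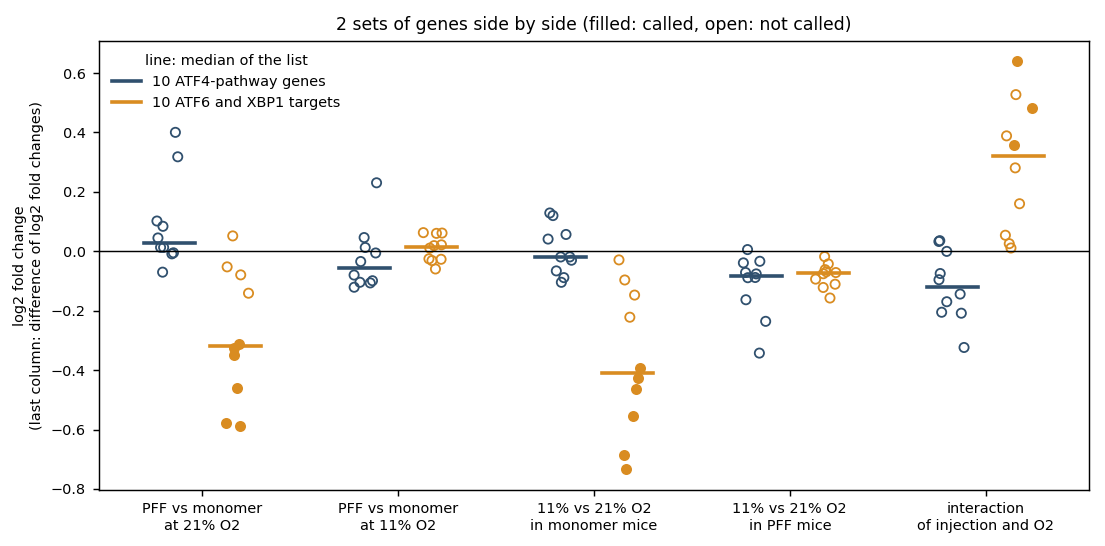
Log2 fold changes of the 10 ATF4-pathway genes and of 10 ATF6 and XBP1 targets in each comparison, with the median of each list as a line and called genes filled. No ATF4-pathway gene is filled, and 6 ATF6 and XBP1 targets are filled below 0 for PFF at 21% O2 and for 11% O2 in monomer mice, with 3 filled above 0 for the interaction.

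**Figure D4:**
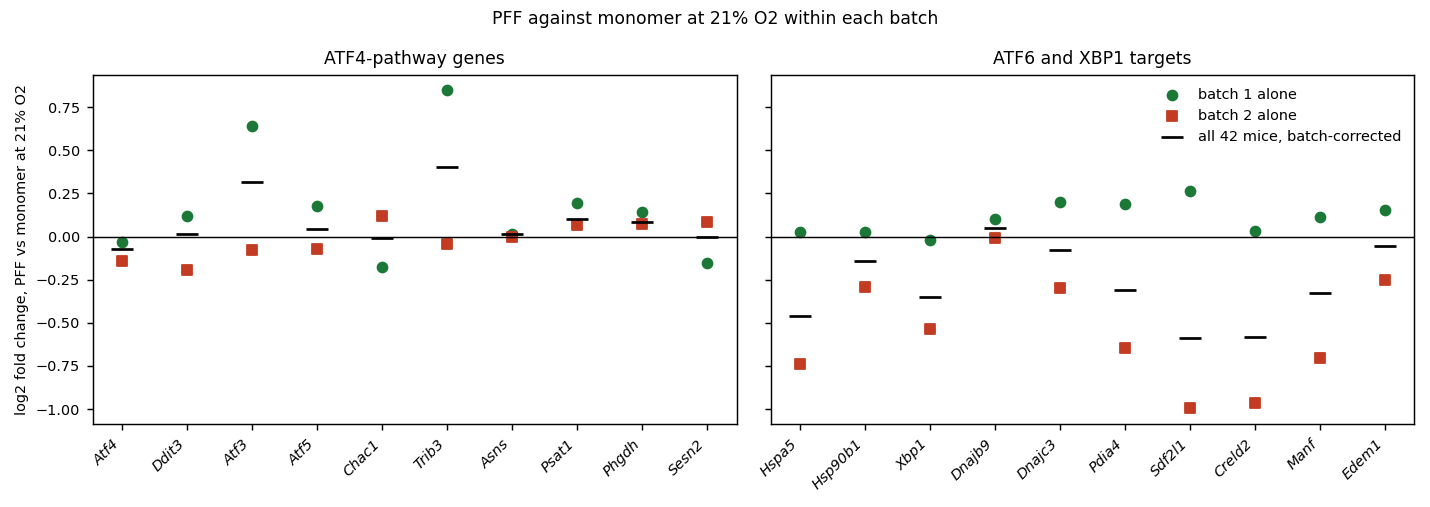
Log2 fold change for PFF against monomer at 21% O2, from counts before correction, within batch 1 and within batch 2, beside the value of all 42 mice (bars). Atf3 and Trib3 are above 0 in batch 1 and slightly below 0 in batch 2, and the ATF6 and XBP1 targets lie near or above 0 in batch 1 and at or below 0 in batch 2.

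Few pairs of the 10 genes were correlated across mice. With group means removed from log2 CPM, 45 pairs of genes had a median Pearson r of 0.01 over 42 mice, and 2 pairs passed by Pearson's r and 3 by Spearman's rho after Benjamini–Hochberg adjustment over the 45 (permutation within group and batch, 100000 resamples, two-sided). Psat1 and Phgdh rose together (r = 0.822, rho = 0.74, permutation p = 1e-05 for both, the smallest the resamples can give, adjusted p = 0.00045). Asns and Phgdh moved in opposite directions (r = -0.587, rho = -0.54, permutation p = 0.00065 and 0.00119, adjusted p = 0.0146 and 0.0268). Without the 2 mice farthest from the median of the first gene, r was 0.774 and -0.556. Within batches 1, 2 and 3, r was 0.895, 0.774 and 0.853 for Psat1 and Phgdh, and -0.618, -0.368 and -0.767 for Asns and Phgdh. Atf4 and its target Asns had r = 0.564 (rho = 0.424, permutation p = 0.01 and 0.0187, adjusted p = 0.0751 and 0.109), which did not pass, and r was 0.446 without the 2 farthest mice. Within batches 1, 2 and 3 r for this pair was 0.712, 0.0411 and 0.224. The third pair by rank was Atf5 and Phgdh (r = 0.467, rho = 0.494, permutation p = 0.00847 and 0.00311, adjusted p = 0.0751 and 0.0466), with r = 0.345 without the 2 farthest mice and 0.268, 0.474 and 0.778 within batches 1, 2 and 3.

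The residuals of the 10 genes were then set beside the mean of each marker list. This comparison was chosen after the values were seen and gave 90 relations, 10 genes by 9 lists. Psat1 and Phgdh followed the 10 oligodendrocyte markers (r = 0.801 and 0.83, rho = 0.73 and 0.72, permutation p = 1e-05 for both r, adjusted p = 0.00045) and the 10 astrocyte markers (r = 0.664 and 0.66, rho = 0.646 and 0.648, permutation p = 2e-05 and 5e-05, adjusted p = 0.0006 and 0.00112). For the oligodendrocyte markers r within batches 1, 2 and 3 was 0.868, 0.817 and 0.894 for Psat1 and 0.761, 0.828 and 0.953 for Phgdh. Asns followed the dopaminergic markers (r = 0.472, rho = 0.556, permutation p = 0.00012, adjusted p = 0.00216) and ran against the astrocyte markers (r = -0.557, rho = -0.588, permutation p = 0.00043, adjusted p = 0.00484). Within batches 1, 2 and 3 these were 0.744, 0.56 and 0.768 for the dopaminergic markers and -0.658, -0.439 and -0.776 for the astrocyte markers. Without the 2 mice farthest from the median of the markers, r was 0.744 and 0.777 for the oligodendrocyte markers, 0.641 and 0.638 for the astrocyte markers with Psat1 and Phgdh, and 0.459 and -0.542 for Asns. In all, 17 of the 90 relations passed by Pearson's r and 13 by Spearman's rho. On counts before correction with group and batch means removed, 19 passed by Pearson's r. In every form, 10 passed. The share of all genes tested that would pass with these lists was not computed. The relations are therefore not shown to be particular to the 10 genes. Psat1 and Phgdh also followed the microglia markers (r = 0.592 and 0.593), and Psat1 the blood markers (0.519). Asns ran against the microglia and oligodendrocyte markers (r = -0.443 and -0.462), neither of which passed by rank. Chac1 ran against the microglia (r = -0.509, rho = -0.485, permutation p = 0.00069, adjusted p = 0.0069), astrocyte (r = -0.528, rho = -0.486, permutation p = 0.00145, adjusted p = 0.013) and endothelial markers (r = -0.456, rho = -0.445, permutation p = 0.00895, adjusted p = 0.0474). On counts before correction Chac1 did not pass with the astrocyte and endothelial markers (permutation, adjusted p = 0.0505 and 0.0804). Within batches 1, 2 and 3 its r with the microglia markers was -0.441, -0.674 and -0.461. By Pearson's r but not by rank, Sesn2 ran against the endothelial markers (-0.57), Atf4 against the blood markers (-0.23) and Atf5 with the astrocyte markers (0.502, and 0.223 without the 2 farthest mice). By rank alone, Sesn2 ran against the blood markers (rho = -0.449). Ddit3, Atf3 and Trib3 passed with none of the 9 lists.

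**Figure D5:**
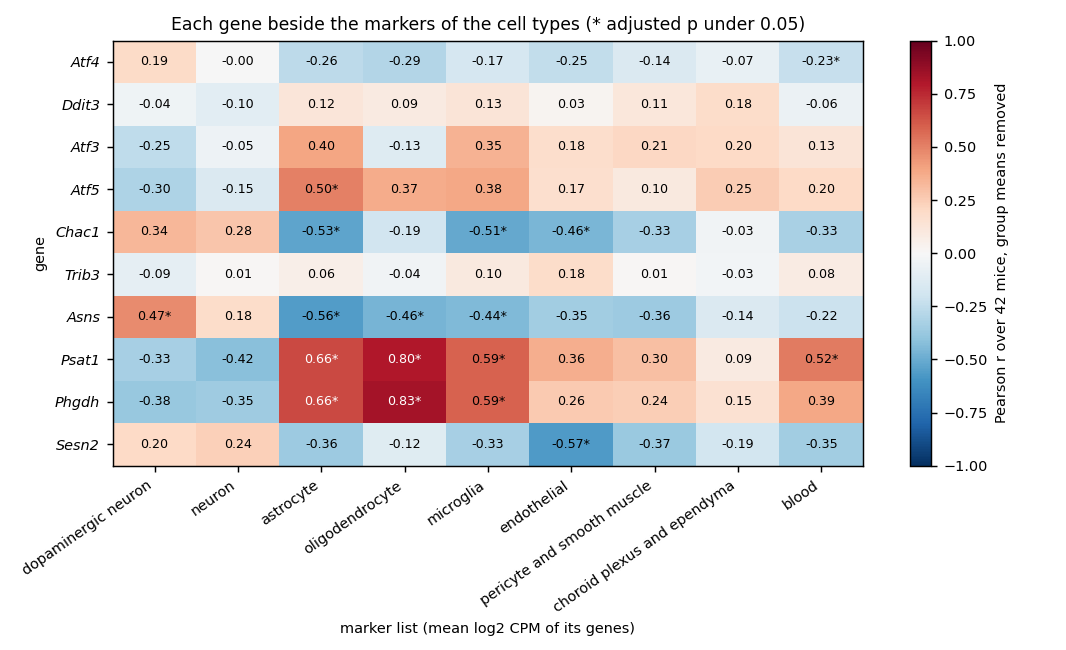
Pearson r over 42 mice, with group means removed, between each gene (rows) and the mean log2 CPM of each marker list (columns). Psat1 and Phgdh are red with astrocyte, oligodendrocyte and microglia markers, where r lies between 0.59 and 0.83, and Asns is blue there.

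The genes closest to each member across the 42 mice, by the same residuals among 14834 genes, are given as a description. Closest to Asns were Tubb3, Rit2 and Mllt11 (r = 0.827, 0.821 and 0.801), of which Tubb3 encodes a neuronal tubulin. With the mean of the 10 neuron markers, however, Asns had r = 0.185 (rho = 0.247), which did not pass. Closest to Psat1 were Apod, Plekhb1 and Pip4k2a (r = 0.923, 0.921 and 0.919), and Plekhb1 also led for Phgdh (r = 0.863), followed by Csrp1 and Myo6 (0.861 and 0.855). Sesn2 lay closest to Mtor, Pip5k1c and Eif4g3 (r = 0.834, 0.824 and 0.822), and Atf4 to Rerg, Cdip1 and Bcl2l2 (r = 0.746, 0.729 and 0.718). Lower values were found for Ddit3 with Bfsp2, Kmt5c and Zgpat (r = 0.729, 0.658 and 0.633), for Chac1 with Zfp512b, 1810010H24Rik and Rai1 (0.686, 0.685 and 0.66) and for Atf5 with Nfix, Man1c1 and Arhgef19 (0.683, 0.673 and 0.652). Atf3 and Trib3, with few counts, had the lowest, with Spry2, Fam20a and Fes (0.637, 0.613 and 0.593) and with Slco4a1, Ifi47 and Tmem71 (0.57, 0.535 and 0.513). No ATF4-pathway gene was among the 3 closest to another.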

How the data were processed

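Per the study's methods and processing notes, reads were aligned to mm10 with STAR 2.7.5a, duplicates were removed with Picard 2.21.9, and reads were counted per gene of GENCODE vM24 with featureCounts 2.0.1 without a strand option. The authors deposited counts and TPM for 48 mice, and batch-corrected counts (ComBat-seq) and TPM for 42 mice and 19601 protein-coding genes. The authors' own test results were not used.

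For the batch-corrected counts, 1 quasi-likelihood fit of all 4 groups was made in edgeR 4.0.16 (R 4.3.3, TMM scaling, filterByExpr by group), with Benjamini–Hochberg adjustment over 14839 genes. The standard error of a log2 fold change was taken from its F statistic, and intervals are 95%. Within-batch values came from fits to the counts before correction. DESeq2 1.42.0 and limma 3.58.1 (log2 TPM plus 1 or 0.1) were alternatives. The fits were tested on simulated data. Duplicate libraries were looked for among 264 pairs within groups and none agreed within sampling noise. Each library is 1 mouse.

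The members and lists were chosen with earlier results of these data known. The text names all 10 members, the called genes of each other list (at most the 4 with the smallest p) and the 3 genes closest to each member.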

Additional observations from a re-analysis of the deposited data

Results flagged for a closer look

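Among the 20 sets of values from groups of 9 or 10 mice, 1 held a value far from the rest, about what chance gives at 1 in 20. In the 9 monomer mice at 11% O2, replicate 3 had 237.6 TPM of Atf4, and the next highest had 206.5 TPM.

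Of the 6 mice outside the batch-corrected table, 4 had a value beyond the range of the 42 before correction. Monomer replicate 10 at 21% O2 had 84.07 TPM of Ddit3, against at most 83.4 TPM in the 42. PFF replicates 2 and 5 at 11% O2 had 55.28 and 62.98 TPM of Atf5, against at most 52.39 TPM. Values under the range of the 42 were more frequent. PFF replicate 2 at 11% O2, with 3134594 counts against at least 12902996 in the 42, had 93.68 TPM of Phgdh, 118.8 of Psat1, 84.8 of Asns and 12.51 of Sesn2, where the lowest of the 42 had 148, 165.9, 108.8 and 13.74 TPM. Monomer replicate 8 at 11% O2 had 101.4 TPM of Asns, 10.67 of Sesn2 and 13.77 of Chac1, and PFF replicate 5 had 14.0 TPM of Chac1, where the lowest of the 42 had 15.14 TPM.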

How the results depend on the processing

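In each of the 5 comparisons 0 of the 10 genes were called by edgeR, and every alternative that was run also gave 0: DESeq2, edgeR with DESeq2 scaling, all genes without the filter, calls by adjusted p only, counts before correction with a batch term in 42 or 48 mice or with none (the last added after seeing the data), each batch alone, the replicate block, the groups compared alone, limma on log2 TPM in 3 forms, and each mouse left out in turn. Of 678 estimates under the alternatives other than leaving out a mouse, 64 changed sign, 4 of them with a main size above 0.1, and 15 moved by more than the SD between mice, all but 1 of them within single batches. Of 2100 estimates without 1 mouse, 56 changed sign, none with a main size above 0.1. An adjusted p under 0.05 occurred in 1 of the 678 and 3 of the 2100, each named with its gene in the text.

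With the replicate block, 0 of the 10 genes were called in each comparison. The labels give replicate numbers, but same-numbered mice did not deviate together in expression (median r of -0.00483 over 54 pairs), so the main fit did not pair mice by number. The paper describes matching of mice by weight, age, delivery date and, where possible, cage. Whether the numbers follow that matching cannot be told from expression. For the correlations between the 10 genes, 3 pairs passed in place of 2 when counts before correction were used with group and batch means removed, which adds Atf5 and Phgdh. With the longer motif, 0 of the 10 promoters matched in place of 4. Trib3 was not tested when the 9 monomer mice at 11% O2 were fitted with 1 other group. For the ATF6 and XBP1 targets, the interaction called 0 to 4 genes over these alternatives, with 0 when batch was a covariate, where the median log2 value was 0.31 in 42 mice and 0.36 in 48 against 0.32.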
